A study of Mus musculus with 12 samples.

Results

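The 5 genes described here encode the inducible parts of the proteasome. Psmb8, Psmb9 and Psmb10 encode the catalytic subunits of the immunoproteasome, and Psme1 and Psme2 encode the alpha and beta subunits of the PA28 activator. They were taken by symbol from the gene column of the authors' comparison tables and by gene ID from the raw counts, and all 5 were found among the 55416 gene IDs counted. Psmb5, Psmb6 and Psmb7, whose products fill the same catalytic positions in the constitutive proteasome, serve as a reference for the levels only.

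RNA-seq libraries of total RNA came from mouse melanoma lines kept in culture. YUMM1.1 cells, a line derived from tumours of Braf-mutant mice, were given 10 ng/ml IFNG (interferon-gamma) for 48 h or left untreated over the same time. B16 cells, a long-established mouse melanoma line, had the same treated and untreated groups. Each of the 4 groups held 3 libraries, and both lines carried their own mutations in treated and control groups alike. Nothing in the labels ties a library to a culture of its own, so every p-value here measures the spread between these libraries, which may be technical. The YUMM1.1 libraries held 19145253 to 24747859 counts and the B16 libraries 2573805 to 7888257.

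The proteasome is a barrel whose inner chambers hold the proteolytic sites. Interferon-gamma induces replacement subunits, which enter newly made particles in place of the constitutive ones and change the cut sites towards peptides that MHC class I molecules bind. PSMB8 (LMP7) replaces PSMB5 at the chymotrypsin-like site, PSMB9 (LMP2) takes the place of the caspase-like PSMB6 without its caspase-like activity, and PSMB10 (MECL-1) replaces PSMB7 at the trypsin-like site. PA28 is a ring of PSME1 and PSME2 that caps the barrel and opens its gate. Gamma-activated sites (GAS) and interferon-stimulated response elements (ISRE), of which IRF1 binds the ISRE, are the DNA elements known to carry the interferon signal to such genes.

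On GRCm38 as annotated in GENCODE M21, the 5 members lie at 3 places, all as protein-coding genes. Psmb9 (ENSMUSG00000096727, chromosome 17, 34181987 to 34187764, minus strand) and Psmb8 (ENSMUSG00000024338, chromosome 17, 34197721 to 34201454, plus strand) stand 9956 bases apart in the MHC, with Tap1 between them. Psme1 (ENSMUSG00000022216, chromosome 14, 55578123 to 55581529, plus strand) and Psme2 (ENSMUSG00000079197, chromosome 14, 55587441 to 55591113, minus strand) point towards each other over 5911 bases. Psmb10 (ENSMUSG00000031897, chromosome 8, 105935735 to 105938444, minus strand) stands alone.

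Since all 5 members moved together, their promoters were searched on both strands, from 250 bases before to 50 bases after the RefSeq start, for the letters of a GAS, TTCNNNGAA, and of an ISRE core, which is GAAA, any 2 bases and GAAA again (TTTC, any 2 bases and TTTC on the other strand). RefSeq promoters on GRCm38.p6 were found for 5 of the 5 members and for 2 of the 3 constitutive genes, all but Psmb7. The GAS letters were held by 8.33% of all 32544 promoters there, and the ISRE core by 3.45%. The windows of Psmb9, Psmb10, Psme2, Psmb5 and Psmb6 held neither run of letters. A match describes the sequence and is not a binding site shown here, and the 2 motifs overlapped nowhere in these windows. The 3 stretches below were chosen for the single GAS match (Psmb8, 97 to 89 bases before the RefSeq start), the single ISRE match (Psme1, bases 10 to 19 from the RefSeq start, read on the opposite strand), and the whole stretch between the RefSeq starts of Psmb9 and Tap1, from which both genes are read outwards by those starts. All 3 stretches lie inside the GENCODE span of their gene given above, so positions hold for the RefSeq starts only. Capitals mark the matched letters, each sequence runs 5′ to 3′ on the strand of its gene, and the Psmb9 stretch has no match and no capitals.
Psmb8, chr17:34198058-34198146, plus strand: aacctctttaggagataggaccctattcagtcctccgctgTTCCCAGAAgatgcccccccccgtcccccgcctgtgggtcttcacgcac
Psme1, chr14:55578463-55578521, plus strand: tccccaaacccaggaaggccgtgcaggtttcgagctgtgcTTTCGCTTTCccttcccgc
Psmb9, chr17:34187331-34187555, minus strand: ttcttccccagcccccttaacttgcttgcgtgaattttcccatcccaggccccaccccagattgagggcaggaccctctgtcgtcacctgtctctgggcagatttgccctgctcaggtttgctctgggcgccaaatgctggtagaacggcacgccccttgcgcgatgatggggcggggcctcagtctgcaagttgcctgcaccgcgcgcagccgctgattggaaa

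Before the values, the libraries were checked. By the labels both lines are melanoma cells. YUMM1.1 libraries held Sox10 at 684 to 770.0 CPM (counts per 1000000 of the library total), but Tyrp1 at 0 reads in all of them and a summed level of 7 melanocyte markers of 740 to 775 CPM after IFNG and 688 to 743 CPM in controls, nearly all of it Sox10. B16 libraries held the 7 markers at 33353 to 35321 CPM after IFNG and 28122 to 28314 CPM in controls. The 12 leukocyte markers summed to 4.53 to 5.45 CPM after IFNG and 3.76 to 6.84 CPM in controls of YUMM1.1, and to 5.72 to 8.35 CPM after IFNG and 4.18 to 8.16 CPM in controls of B16, with Itgam and Nkg7 at 0 in every library. The 5 fibroblast markers summed to 5.54 to 7.23 CPM after IFNG and 7.35 to 12.4 CPM in YUMM1.1 controls, and to 6.01 to 54.7 CPM after IFNG and 10.3 to 15.2 CPM in B16 controls, the highest value being that of B16 IFNG 2. B16 IFNG 3 stood apart from the other treated B16 libraries. Its chi-square values over their degrees of freedom were 17.2 and 16.9 against them, where they had 1.27 between each other. Mitochondrial genes took 1.95% of its counts against 1.07% and 1.04%. In YUMM1.1, control 1 had values of 41.5 and 32.3 against the other controls, which had 14.0 between each other. YUMM1.1 IFNG 3 had 30.7 and 30.4 against the other treated libraries, which had 13.5 between each other. YUMM1.1 control 1 also had the highest mitochondrial share of its line. Chi-square values were not compared between lines, as library depth differed.

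IFNG raised all 5 members in both lines. Psmb8 and Psmb9 reached 97.1 to 638 CPM in treated cells, against fewer than 1 CPM in untreated ones, and Psmb10, Psme1 and Psme2, which untreated cells already expressed, rose 7.47- to 36.2-fold. A gene counts as called where edgeR's quasi-likelihood test gave it a p below 0.05 after Benjamini-Hochberg adjustment over every tested gene. In YUMM1.1, 5 of 5 members were called higher, where 3.73% of the 12970 tested genes were (0.825% lower, 4.56% in either direction). In B16, 5 of 5 were called higher, where 22.1% of the 11240 tested genes were (22.0% lower, 44.1% in either direction). In both lines Psmb8 and Psmb9 were too scarce in controls to pass the filter on read counts there. They were tested through their treated libraries, so a call other than higher was hardly possible for them. The members' median log2 change was 4.07 in YUMM1.1 (from 2.90 to 10.88) and 5.18 in B16 (from 3.31 to 11.28), beside -0.01 for all tested genes in each line. The B16 median is the value of Psmb10. Psmb8 and Psmb9 lie above it even at the lower bounds of their counting intervals (log2 7.76 and 9.47), so their few control reads could not move it. In every case the 3 treated libraries lay above the 3 control libraries of the same line. How many of all tested genes separate in that way was not counted, here or for the other library overlaps given below. A change in the RNA of all cells and a change in the number of cells that express a gene cannot be told apart in bulk RNA. When counts were scaled to library totals, and not by TMM factors, the median of all genes moved to -0.08 in YUMM1.1 and -0.20 in B16, so changes are stated relative to TMM scaling, and the calls of the members held under both.

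**Figure D1:**
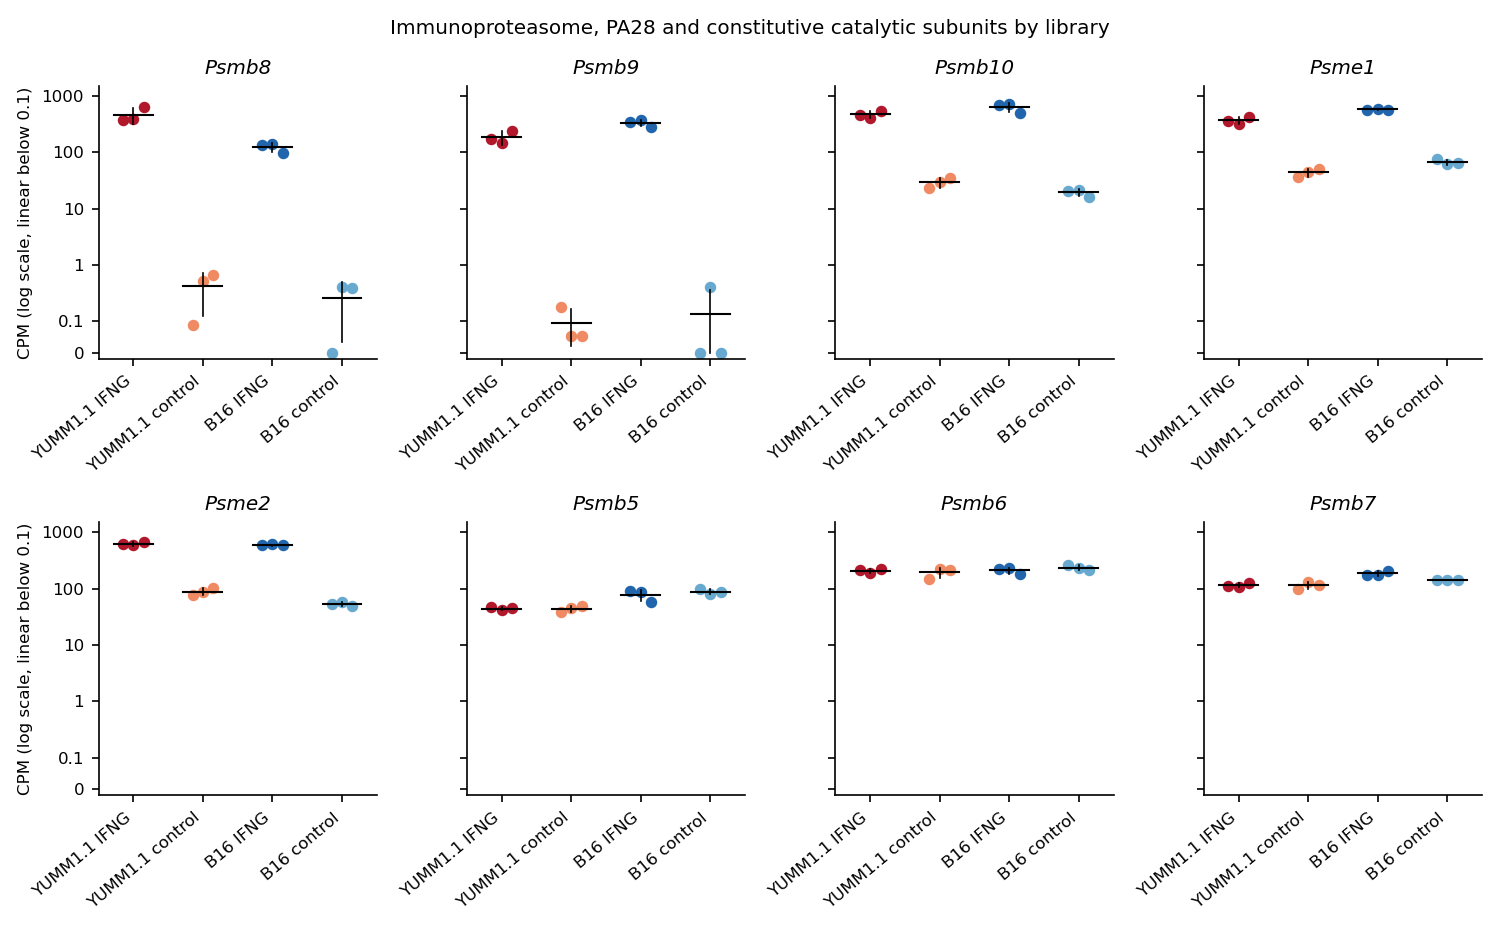
CPM of the 5 members and of Psmb5, Psmb6 and Psmb7 in each of the 12 libraries (points), with the mean (bar) and SD (line, drawn no lower than 0) of 3 libraries per group, on a log axis that is linear below 0.1. The treated libraries of Psmb8, Psmb9, Psmb10, Psme1 and Psme2 lie above the controls of their line, while those of Psmb5 and Psmb6 overlap them.

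Psmb8, the chymotrypsin-like subunit, had 376, 382 and 638 CPM in the YUMM1.1 IFNG libraries, against 0.0894, 0.522 and 0.669 CPM in the YUMM1.1 controls. It had 136, 141 and 97.1 CPM in the B16 IFNG libraries, against 0, 0.398 and 0.389 CPM in the B16 controls. YUMM1.1 IFNG 3 stood above the other treated libraries of its line and B16 IFNG 3 below those of its own, and the controls rested on 2, 10 and 13 reads in YUMM1.1 and on 0, 2 and 1 reads in B16. The 0 reads of B16 control 1 allow up to 0.380 CPM (3 counts of its total). The fitted log2 change was 10.20 (SE 0.42, adjusted p = 1.66e-07 in edgeR) in YUMM1.1. With 3 control reads in all, the B16 change is best given as a ratio of counts, 633-fold with a 95% exact binomial counting interval of 216 to 3072. The fitted value of 9.34 (SE 0.38, adjusted p = 1.02e-07 in edgeR) depends on the prior count and is no bound. Its SE is narrow beside the counting interval, which runs from log2 7.76 to 11.6, and does not give the precision of the change. The YUMM1.1 ratio was 1137 (770 to 1758). Intervals and floors cover counting error only.

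Psmb9, whose product takes the position of PSMB6, had 172, 145 and 243 CPM in the YUMM1.1 IFNG libraries, against 0.179, 0.0522 and 0.0514 CPM in the controls. It had 351, 369 and 283 CPM in the B16 IFNG libraries, against 0, 0.398 and 0 CPM in the controls. The groups were far apart in both lines. The YUMM1.1 controls held 4, 1 and 1 reads and the B16 controls 0, 2 and 0. The ratio of counts was 1890.2 (868 to 5151) in YUMM1.1 and 2559 (708 to 21139) in B16. In edgeR the log2 change in YUMM1.1 was 10.88 (SE 0.36, adjusted p = 3.29e-08), and among its tested genes Psmb9 ranked 8 by log2 change and Psmb8 ranked 17. In B16 Psmb9 ranked 8 and Psmb8 29. These ranks are approximate, as the fitted values rest on few control reads and depend on the prior count. Without B16 control 2, the library that held both control reads, the fitted B16 value was 13.94, which again is no bound.

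Psmb10, the trypsin-like subunit, had 455, 412 and 539 CPM in the YUMM1.1 IFNG libraries, against 23.3, 29.5 and 35.4 CPM in the controls. It had 684, 722 and 495 CPM in the B16 IFNG libraries, against 20.9, 21.3 and 16.3 CPM in the controls. Unlike the other catalytic members it was well above counting noise in untreated cells of both lines, with 42 to 689 reads per control library. The log2 change was 4.07 (SE 0.18, adjusted p = 1.66e-07) in YUMM1.1 and 5.18 (SE 0.18, adjusted p = 4.00e-08) in B16, both from edgeR.

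Psme1, the PA28 alpha subunit, had 359, 316 and 427 CPM in the YUMM1.1 IFNG libraries, against 37.0, 43.9 and 50.3 CPM in the controls. It had 574, 595 and 567 CPM in the B16 IFNG libraries, against 74.4, 60.9 and 63.3 CPM in the controls. The treated B16 libraries agreed within a narrow range, with B16 IFNG 3 no longer apart. The log2 change was 3.15 (SE 0.16, adjusted p = 4.95e-07) in YUMM1.1 and 3.31 (SE 0.11, adjusted p = 1.69e-08) in B16 by edgeR.

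Psme2, the PA28 beta subunit, had 613, 591 and 687 CPM in the YUMM1.1 IFNG libraries, against 76.4, 88.2 and 103 CPM in the controls. It had 586, 611 and 592 CPM in the B16 IFNG libraries, against 53.6, 57.6 and 49.3 CPM in the controls. Treated cells of both lines reached about the same level. The log2 change was 2.90 (SE 0.14, adjusted p = 3.75e-07) in YUMM1.1 and 3.66 (SE 0.10, adjusted p = 4.96e-09) in B16 by edgeR. Its near-identical copy Psme2b, 99.4% the same over 794 bases, carried 3.64% as many counts. Psme2b had 22.4, 22.1 and 26.1 CPM in YUMM1.1 IFNG libraries, against 3.13, 3.24 and 3.50 CPM in controls. How the authors' counting split reads between the copies is not given in the sources used here. Adding the Psme2b counts to Psme2 changed no call of the member.

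Together the 5 genes made up 0.185% to 0.253% of all counts in the YUMM1.1 IFNG libraries, against 0.0137% to 0.0189% in the controls. In B16 they made up 0.203% to 0.244% after IFNG, against 0.0129% to 0.0149% in the controls. The sum over the members was 2118 ± 366 CPM in YUMM1.1 IFNG and 163 ± 26.1 CPM in YUMM1.1 controls, and 2267 ± 209 CPM in B16 IFNG and 139.7 ± 9.82 CPM in B16 controls (SD, n = 3 each). The authors' deposited tables, from a fit of their own, give log2 changes of 10.19, 10.97, 4.07, 3.15 and 2.90 in YUMM1.1 and of 9.53, 11.52, 5.21, 3.33 and 3.68 in B16 for Psmb8, Psmb9, Psmb10, Psme1 and Psme2.

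Exons of other genes overlap some members, and the strand of the libraries is not given in the sources used here, so reads in shared exons cannot be assigned with certainty. Psmb9 and Tap1, read from opposite strands, share 212 exonic bases, 5.79% of the 3660 bases of the Psmb9 exon union. The longest protein-coding Psmb9 transcript has only 1352 bases, of which 212 match Tap1 at 100% identity. Over all 12 libraries Tap1 carried 252% as many counts as Psmb9. How far shared reads touch the Psmb9 counts was not tested. Tap1, a chain of the transporter that carries peptides into the endoplasmic reticulum, had 544 ± 53.4 CPM in YUMM1.1 IFNG and 2.54 ± 0.532 CPM in controls, and 536 ± 88.4 CPM in B16 IFNG and 3.19 ± 0.450 CPM in controls (SD, n = 3 each). The antisense gene Gm20496, which shares 498 bases with Psmb8, was at 0 in all 12 libraries. Emc9, which shares 14 bases with Psme1, had 11.7 ± 1.31 CPM in YUMM1.1 IFNG and 13.0 ± 1.68 CPM in controls.

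The constitutive counterparts moved little. In YUMM1.1, 0 of 3 were called at an adjusted p below 0.05 in edgeR, where 4.56% of all tested genes were. Their log2 changes were 0.08 for Psmb5 (adjusted p = 0.85), 0.15 for Psmb6 (0.73) and 0.06 for Psmb7 (0.89), and none of the alternatives run, DESeq2 and limma-voom included, called any of them. None had an unadjusted p below 0.05 (0 of 3), and with library totals Psmb5 and Psmb7 turned to -0.0015 and -0.013. In B16, Psmb7 alone was called, where 44.1% of all tested genes were. It had 176, 178 and 207 CPM in the B16 IFNG libraries, against 143, 142 and 141 CPM in the controls, so that the groups did not overlap, and rose by log2 0.59 (SE 0.10, adjusted p = 8.71e-04 in edgeR). Psmb5 averaged 79.0 ± 17.6 CPM in B16 IFNG and 89.0 ± 9.49 CPM in controls, and Psmb6 averaged 211 ± 26.5 CPM in B16 IFNG and 237 ± 21.7 CPM in controls (SD, n = 3 each). Their log2 changes of 0.02 each were not called in edgeR (adjusted p = 0.95 and 0.89), and with library totals the values were -0.18 and -0.17, also not called. Psmb7 shares 405 exonic bases with Nek6, read from the opposite strand, and Nek6 averaged 80.3 ± 2.46 CPM in B16 IFNG and 118 ± 6.18 CPM in controls.

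**Figure D2:**
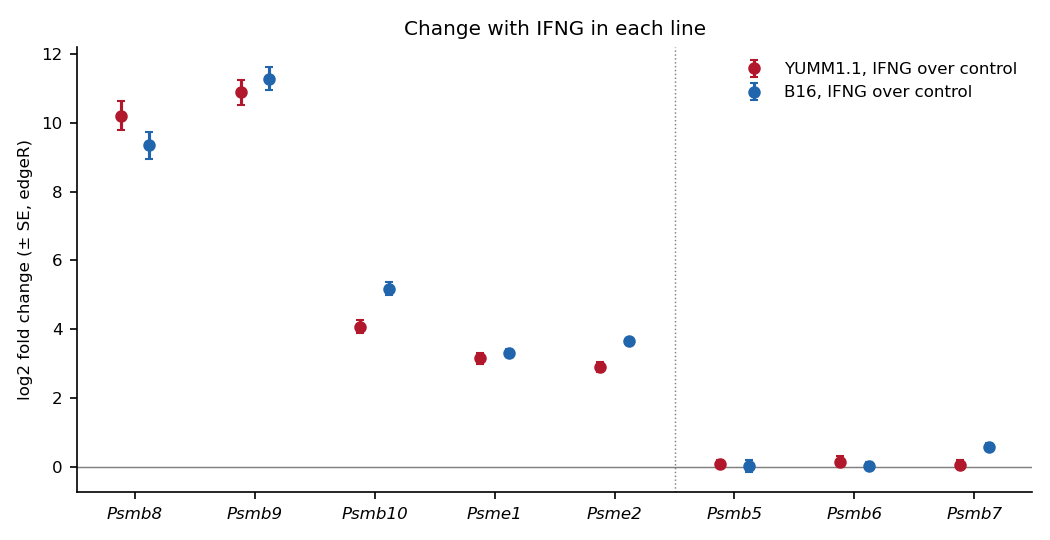
Log2 fold change of IFNG over control (± SE, edgeR) for the 5 members, left of the dotted line, and the 3 constitutive counterparts, right of it, in YUMM1.1 and B16. The members lie between 2.90 and 11.28, the counterparts between 0.02 and 0.59. For Psmb8 and Psmb9, whose controls held few reads, the SE can understate the uncertainty.

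How far the inducible gene outweighed its counterpart was taken as its share of the pair, with counts divided by the exon-union length of each gene. This is a share of RNA, and the make-up of the particles was not measured. Psmb8 made up 68.1%, 70.8% and 79.2% of the Psmb8 and Psmb5 counts per kb in YUMM1.1 IFNG, against 0.0618%, 0.304% and 0.357% in controls. It made up 28.3%, 30.2% and 30.5% in B16 IFNG, against 0, 0.133% and 0.115% in controls. The treated libraries of the lines did not overlap, with YUMM1.1 higher. Psmb9 made up 29.2%, 28.2% and 35.8% of its pair with Psmb6 in YUMM1.1 IFNG, against 0.0605%, 0.0120% and 0.0120% in controls. In B16 it made up 44.8%, 44.9% and 44.4% after IFNG, against 0, 0.0861% and 0 in controls. Here the treated libraries were apart as well, with B16 higher. Psmb10 made up 89.0%, 88.5% and 89.4% of its pair with Psmb7 in YUMM1.1 IFNG, against 31.8%, 30.7% and 37.7% in controls, and 88.7%, 89.0% and 82.7% in B16 IFNG, against 22.7%, 23.1% and 18.8% in controls. Treated libraries of the lines overlapped for this pair. Each of these 6 differences within a line had p = 0.1 in an exact two-sided permutation test, the smallest that 3 against 3 libraries allow.

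These shares change with the gene lengths used. Mean shares of Psmb8 after IFNG were 72.7 ± 5.78% in YUMM1.1 and 29.6 ± 1.22% in B16. They were 84.6% and 46.7% with the exons of GENCODE's basic transcripts only, and 90.8% and 61.3% with plain counts. For Psmb9 they were 31.1 ± 4.14% in YUMM1.1 and 44.7 ± 0.247% in B16, against 34.2% and 48.3% with basic transcripts and 46.7% and 61.2% with plain counts. For Psmb10 they were 89.0 ± 0.472% and 86.8 ± 3.54%, against 78.1% and 74.5% with basic transcripts and 80.1% and 76.7% with plain counts (SD, n = 3). The line with the higher mean stayed the same for each pair, while Psmb8 exceeded Psmb5 in B16 only with plain counts.

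**Figure D3:**
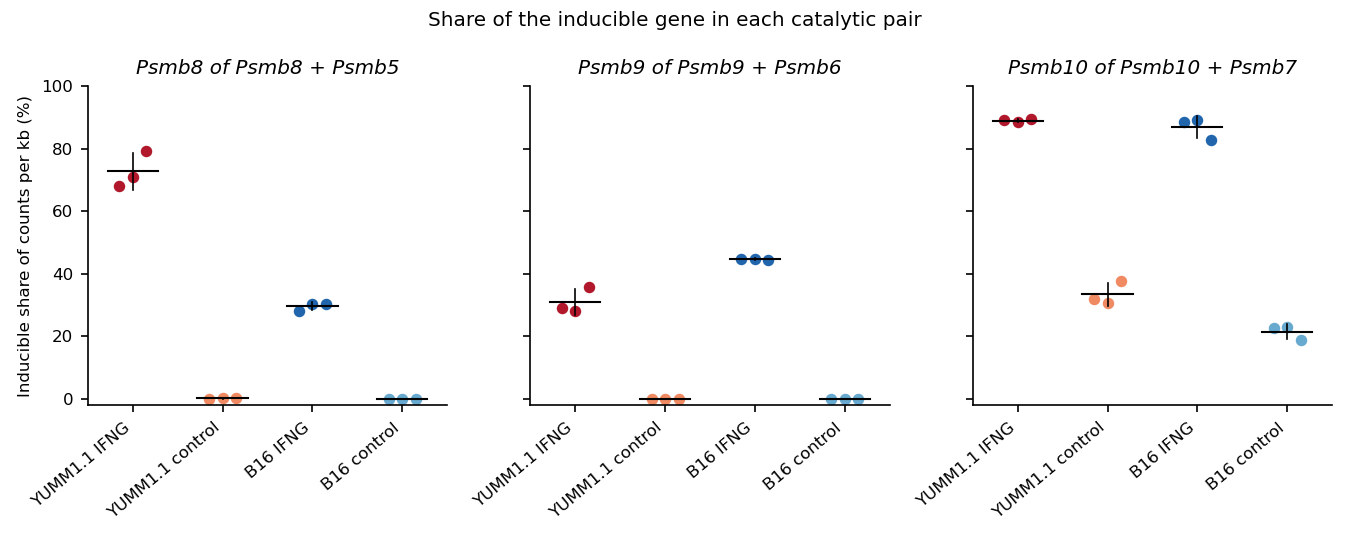
Share of the inducible gene in the summed counts per kb of its catalytic pair, in percent, for each library (points) with mean and SD of 3 libraries. Psmb8 after IFNG is higher in YUMM1.1 (72.7%) than in B16 (29.6%), Psmb9 is lower in YUMM1.1 (31.1%) than in B16 (44.7%), and Psmb10 starts from 33.4% and 21.5% in the controls.

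The summed level of each pair was also compared, with no test. For Psmb10 with Psmb7 it was 309 ± 41.0 CPM per kb in YUMM1.1 IFNG and 51.5 ± 7.40 in controls, and 426 ± 66.3 in B16 IFNG and 53.0 ± 1.90 in controls. For Psmb8 with Psmb5 it was 187 ± 44.5 CPM per kb in YUMM1.1 IFNG and 49.7 ± 6.37 in controls, and 125 ± 26.5 in B16 IFNG and 99.0 ± 10.5 in controls, where the libraries overlapped. For Psmb9 with Psmb6 it was 162 ± 22.5 CPM per kb in YUMM1.1 IFNG and 105 ± 21.4 in controls, and 204 ± 26.5 in B16 IFNG and 127 ± 11.6 in controls (SD, n = 3 each).

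On the same scale per length, the order of the 8 genes changed in part with treatment. In YUMM1.1 IFNG it ran Psme2 (357 ± 28.5 CPM per kb), Psmb10 (275 ± 37.9), Psme1 (166 ± 25.4), Psmb8 (138 ± 44.3), Psmb6, Psmb9, Psmb5 and Psmb7. The neighbours Psme1 and Psmb8, Psmb8 and Psmb6, and Psmb9 and Psmb5 did not differ beyond the spread of their libraries. In YUMM1.1 controls the order was Psmb6, Psme2, Psmb5, Psmb7, Psme1, Psmb10, Psmb8 and Psmb9, with Psme2 and Psmb5, Psme1 and Psmb10, and Psmb8 and Psmb9 overlapping. In B16 IFNG it ran Psmb10 (372 ± 71.3), Psme2 (338 ± 7.36), Psme1 (262 ± 6.78), Psmb6, Psmb9, Psmb5, Psmb7 and Psmb8 (36.8 ± 7.06), with overlaps between Psmb10 and Psme2, Psmb6 and Psmb9, and Psmb9 and Psmb5. In B16 controls all 3 constitutive genes led, followed by Psme2, Psme1, Psmb10, Psmb8 and Psmb9, with Psme2 and Psme1 and the last pair overlapping. Psmb8 thus stood above every constitutive counterpart in its mean in YUMM1.1 IFNG and below each of them in B16 IFNG. With basic transcripts Psmb10 stood in B16 IFNG behind Psme2 and Psme1, and Psmb8 was again the lowest. With plain counts, which are not per length, Psmb8 stood above Psmb5 in B16 IFNG and Psmb5 was the lowest.

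**Figure D4:**
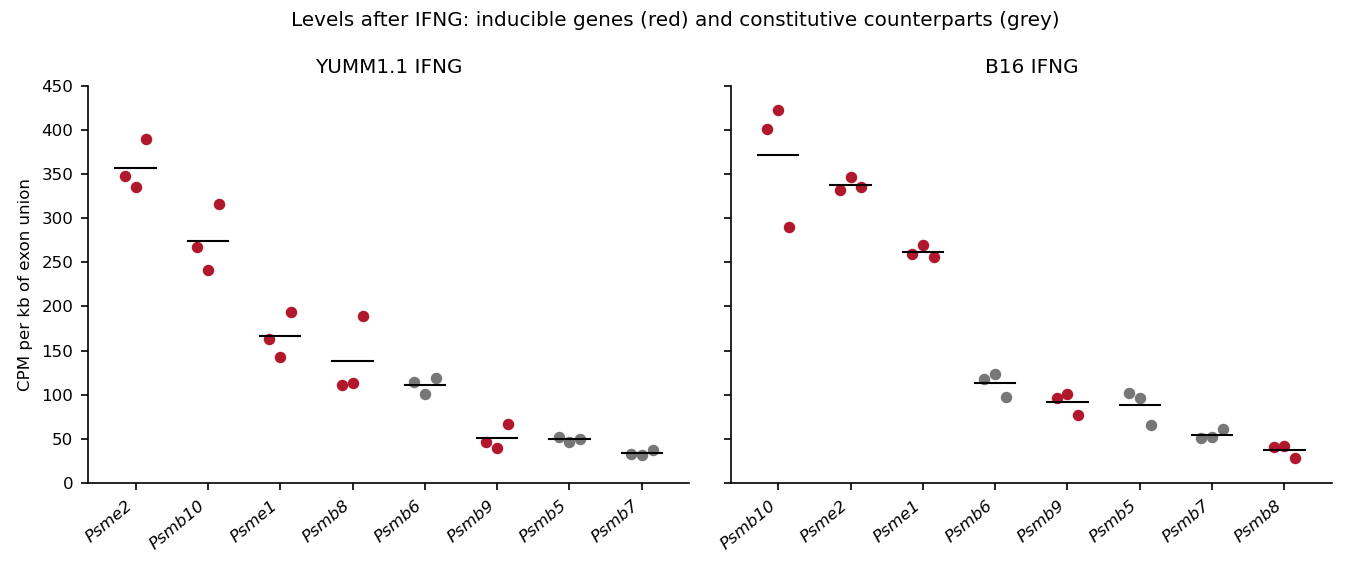
CPM per kb of exon union in the treated libraries of YUMM1.1 and B16, genes ordered by their mean (bar), members in red and constitutive counterparts in grey. Psme2, Psmb10 and Psme1 lead in both lines, and Psmb8 has place 4 in YUMM1.1 and the last place in B16.

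The lines were compared before treatment. Of the 5 members, 2 were called higher and 1 lower in YUMM1.1 than in B16 controls, where 68.1% of 13603 genes were called (34.7% higher and 33.4% lower), so that a call between lines is a common event and line and any batch of library preparation cannot be told apart. Psmb10 averaged 29.4 ± 6.05 CPM in YUMM1.1 controls and 19.5 ± 2.78 CPM in B16 controls (log2 0.77, SE 0.19, adjusted p = 0.00212 in edgeR). Psme2 averaged 89.1 ± 13.2 CPM in YUMM1.1 controls and 53.5 ± 4.11 CPM in B16 controls (log2 0.94, SE 0.13, adjusted p = 4.62e-06 in edgeR). Psme1 went the other way, at 43.7 ± 6.64 CPM in YUMM1.1 controls and 66.2 ± 7.19 CPM in B16 controls (SD, n = 3 each; log2 -0.39, SE 0.14, adjusted p = 0.0229 in edgeR), and that call was lost without B16 control 1 (adjusted p = 0.198) or without YUMM1.1 control 1 (0.0965). Psmb8 and Psmb9 were too scarce to compare, with 95% intervals of -1.17 to 3.66 and -2.89 to 2.54 for the log2 difference.

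The lines were also compared after treatment. Of the members, 1 was called higher and 2 lower in YUMM1.1 IFNG than in B16 IFNG, where 69.8% of 13603 genes were called (36.6% higher and 33.2% lower), so the share of members called was no larger than that of all genes. Psmb8 averaged 465 ± 150 CPM in YUMM1.1 IFNG and 125 ± 23.9 CPM in B16 IFNG (log2 2.03, SE 0.24, adjusted p = 1.41e-06 in edgeR). Psmb9 averaged 186 ± 50.6 CPM in YUMM1.1 IFNG and 334 ± 45.0 CPM in B16 IFNG (log2 -0.72, SE 0.18, adjusted p = 0.00195 in edgeR). Psme1 averaged 368 ± 56.2 CPM in YUMM1.1 IFNG and 579 ± 15.0 CPM in B16 IFNG (log2 -0.53, SE 0.13, adjusted p = 0.00211 in edgeR). In all 3 the treated libraries of the lines did not overlap, and the share of all genes with such separation was not counted. Psmb8 and Psmb9, which are neighbours in the genome, therefore stood in opposite orders in the 2 lines, Psmb8 above Psmb9 in YUMM1.1 and below it in B16. Psme2, at 630.5 ± 50.3 CPM in YUMM1.1 IFNG and 596 ± 13.0 CPM in B16 IFNG, was not called (log2 0.20, 95% interval -0.03 to 0.43, adjusted p = 0.133 in edgeR). Psmb10, at 469 ± 64.6 CPM in YUMM1.1 IFNG and 633 ± 122 CPM in B16 IFNG, was not called either (log2 -0.31, 95% interval -0.64 to 0.01, adjusted p = 0.101 in edgeR), but was without B16 IFNG 3 (log2 -0.46, adjusted p = 0.0140) or YUMM1.1 IFNG 3 (-0.43, 0.0416).

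Between the RNAs of the PA28 subunits the balance also differed between lines, while the make-up of the PA28 ring was not measured. Psme1 made up 31.9%, 29.9% and 33.2% of the Psme1 and Psme2 counts per kb in YUMM1.1 IFNG, against 27.9%, 28.4% and 28.1% in controls. In B16 it made up 43.9%, 43.8% and 43.3% after IFNG, against 52.6%, 45.8% and 50.6% in controls. With IFNG the share was higher in every treated YUMM1.1 library than in any control and lower in every treated B16 library than in any control, at p = 0.1 in the exact two-sided permutation test, again the smallest possible. In all 12 libraries the share was lower in YUMM1.1 than in B16.

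The response to IFNG itself differed between lines for some members. The interaction of line and treatment was called for 2 of 5 members, both smaller in YUMM1.1, where 18.5% of 13603 genes were called, 8.51% in that direction and 9.95% in the other. For Psmb10 the YUMM1.1 change minus the B16 change was log2 -1.09 (SE 0.26, adjusted p = 0.00681 in edgeR). For Psme2 it was log2 -0.74 (SE 0.17, adjusted p = 0.00612 in edgeR). Both genes had the higher untreated level in YUMM1.1 and did not differ by a call after treatment. Psme1 was not called (log2 -0.14, 95% interval -0.52 to 0.24, adjusted p = 0.685 in edgeR). For Psmb8 (log2 0.78, interval -2.40 to 3.96) and Psmb9 (log2 -0.55, interval -3.48 to 2.39) the few control reads made the intervals wide, at edgeR adjusted p = 0.807 and 0.862. Psmb7 was just short of a call (log2 -0.51, SE 0.17, adjusted p = 0.0505 in edgeR) and was called with DESeq2 (adjusted p = 0.0173), without YUMM1.1 control 1 (0.0152) and without YUMM1.1 IFNG 3 (0.0270), while Psmb5 and Psmb6 were not called.

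In the treated YUMM1.1 group IFNG 3 had the highest value of all 5 members. In the treated B16 group IFNG 3, the library with the higher mitochondrial share, had the lowest value of Psmb8, Psmb9, Psmb10 and Psme1 but not of Psme2. Over the 12 libraries the log2 CPM of any 2 members correlated at Pearson r of 0.932 to 0.993, a description in which the libraries share their line, treatment and depth. The genes most like the mean of the 5 members, out of 10668 tested in both lines, were Gm4951 (r = 0.995), Gm5970, the immunity-related GTPase gene Igtp, the guanylate-binding protein gene Gbp2 and the GTPase gene Tgtp2 (r = 0.994 each, over 12 libraries). Igtp changed by log2 9.43 in YUMM1.1 and 10.62 in B16, and Gbp2 by 8.16 in YUMM1.1 and 8.47 in B16, all larger than the changes of Psmb10, Psme1 and Psme2.

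Other proteasome genes changed less, and in YUMM1.1 few of them were called. Of the 11 other subunits of the 20S core, edgeR called 1 higher in YUMM1.1 and 10 higher in B16, and none lower. Of all tested genes, 3.73% were called higher in YUMM1.1 and 22.1% in B16. In YUMM1.1, 6 of the 11 had an unadjusted p below 0.05 in edgeR, and DESeq2 called 3. The median log2 change was 0.28 in YUMM1.1, where the smallest was 0.0995, and 0.86 in B16. The largest rise was that of Psma5, an alpha-ring subunit, at 149 ± 15.5 CPM in YUMM1.1 IFNG and 92.9 ± 13.7 CPM in controls (log2 0.76, adjusted p = 0.00871 in edgeR), and 171 ± 2.89 CPM in B16 IFNG and 66.4 ± 7.39 CPM in controls (log2 1.55, adjusted p = 3.00e-06). The most abundant, Psma7 in YUMM1.1 and Psmb4 in B16, changed by log2 0.15 (adjusted p = 0.701) and 0.60 (0.00163) in edgeR. Psmb11, the thymus subunit, had 3 reads in YUMM1.1 IFNG and 1 in controls, and 9 in B16 IFNG and 0 in controls, and Psma8, the testis subunit, had 2 reads in the YUMM1.1 IFNG libraries and 0 in the other groups.

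Pomp, the chaperone that matures new core particles, rose in both lines. It had 199 ± 27.1 CPM in YUMM1.1 IFNG and 127 ± 18.8 CPM in controls (log2 0.73, adjusted p = 0.0160 in edgeR), and 301 ± 2.88 CPM in B16 IFNG and 127 ± 10.7 CPM in controls (log2 1.43, adjusted p = 2.05e-06). Without YUMM1.1 control 3 the YUMM1.1 call was lost (adjusted p = 0.0692). Psmg4, another assembly chaperone, rose by log2 1.15 in YUMM1.1 (adjusted p = 5.60e-04 in edgeR) and 0.61 in B16 (0.00818), where its call was lost without B16 control 2 (adjusted p = 0.0545), and the other 3 chaperones were not called in either line. Pomp, like Psma5, rose less in YUMM1.1 than in B16 (interaction log2 -0.69 and -0.76, edgeR adjusted p = 0.0141 and 0.00807).

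Of the other activators, Psme3 (PA28 gamma, the nuclear relative of the members) and Psme4 (PA200) were not called in either line. Their log2 changes were -0.11 and -0.08 in YUMM1.1 and -0.07 and 0.18 in B16, and with library totals Psme3 was called lower in B16 (-0.26, adjusted p = 0.0277) and Psme4 changed sign. Psmf1, the inhibitor PI31, had 67.3 ± 4.61 CPM in YUMM1.1 IFNG and 54.4 ± 4.86 CPM in controls (log2 0.39, adjusted p = 0.10 in edgeR, but 0.0332 with all 12 libraries in 1 fit), and 159 ± 3.56 CPM in B16 IFNG and 63.1 ± 1.99 CPM in controls (log2 1.52, adjusted p = 1.27e-06). The difference of the changes was called (log2 -1.11, SE 0.15, adjusted p = 7.30e-05). Of 18 subunits of the 19S cap, 0 were called in YUMM1.1 by edgeR, DESeq2 or limma-voom (0 at an unadjusted p below 0.05 in edgeR). With 4.56% of all tested genes called in YUMM1.1 by edgeR, few calls among 18 genes would set them apart from no calls. In B16, 10 were called higher and 1 lower in edgeR, where 22.1% and 22.0% of all tested genes were. Psmd1 rose by log2 0.71 in B16, and Psmd2, the most abundant of them in treated cells of both lines, by 0.65. Psmd8 fell by 0.25 there (adjusted p = 0.0439 in edgeR), a call lost in 10 of 17 alternatives.

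The partners of the members in antigen presentation moved on the members' scale. All 7 genes of the class I peptide route rose in both lines, with a median log2 change of 6.26 in YUMM1.1 and 4.35 in B16. The largest rise was that of Tap2 in YUMM1.1 (log2 8.23) and of Tap1 in B16 (log2 7.54), and B2m, the most abundant, rose by 3.50 and 3.44, all called in edgeR. Tap1 and Psmb9, which share the stretch shown above, had interaction values of log2 0.29 and -0.55, neither called.

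**Figure D5:**
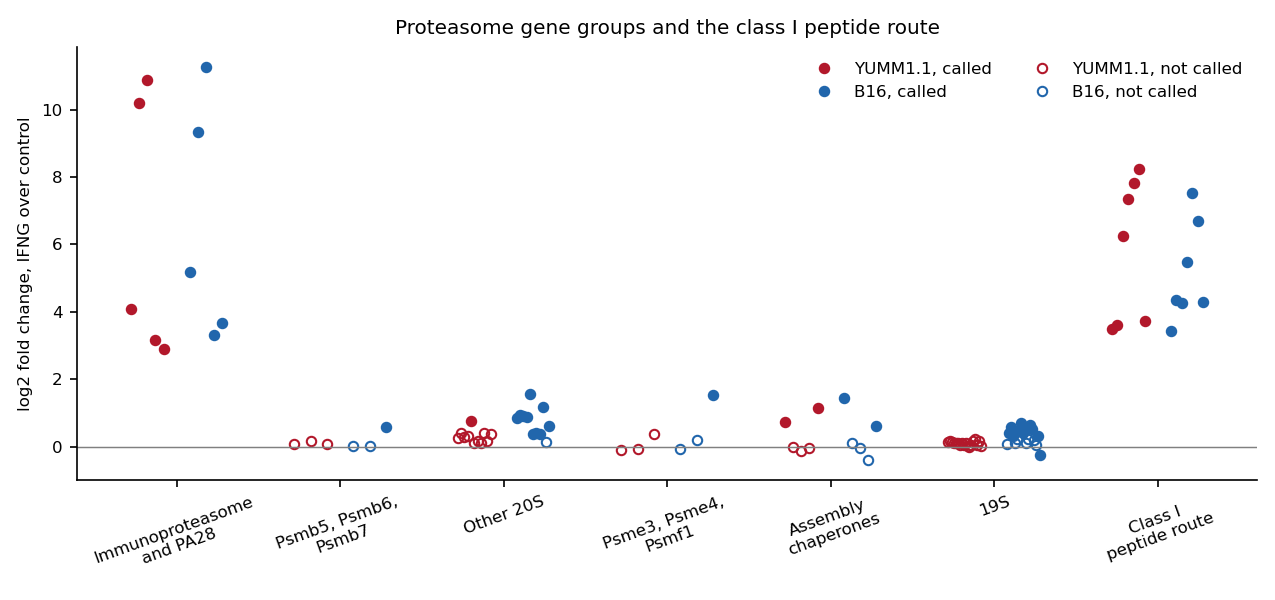
Log2 fold change of IFNG over control for each tested gene of the groups, filled where called at an adjusted p below 0.05 in edgeR and open where not, with YUMM1.1 left of B16. The members and the class I genes lie above 2.8, and the other proteasome genes plotted lie below 1.6.

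The known regulators differed in their response. Irf1 encodes a transcription factor that interferon induces. Irf1 averaged 443 ± 30.9 CPM in YUMM1.1 IFNG and 28.2 ± 2.15 CPM in controls (log2 4.05), and 817 ± 47.4 CPM in B16 IFNG and 28.9 ± 4.63 CPM in controls (log2 4.98). It rose less in YUMM1.1, by an interaction of log2 -0.91 (edgeR adjusted p = 0.00178), the same direction as Psmb10 and Psme2. Nlrc5, the transactivator of MHC class I genes, went the opposite way, with 212 ± 23.7 CPM in YUMM1.1 IFNG and 0.168 ± 0.0844 CPM in controls (log2 10.36), and 375 ± 42.4 CPM in B16 IFNG and 2.61 ± 0.940 CPM in controls (log2 7.49). The interaction was log2 2.86 (adjusted p = 4.52e-04 in edgeR). Nlrc5 had only 10 reads in all in the YUMM1.1 controls, which were the deeper libraries, and 36 in the B16 controls. Its mean after IFNG was lower in YUMM1.1. The interaction held in all 22 alternatives (log2 2.54 to 3.28), but its size is uncertain with so few control reads. What underlies the larger YUMM1.1 change was not tested. Nfe2l1, which drives constitutive proteasome genes when proteolysis is blocked, was not called in either line (log2 0.19, adjusted p = 0.534, and -0.24, adjusted p = 0.0683, in edgeR), though it was called lower in B16 with library totals (-0.43, adjusted p = 0.00370), with the replicate block (-0.24, 0.0283) and without B16 IFNG 3 (-0.15, 0.0267).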

How the data were processed

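Raw read counts per Ensembl gene ID were deposited by the authors as whole numbers with no normalization, and their comparison tables hold per gene a log2 fold change, an unadjusted p-value and the score of the test, per the file headers. Those tables served for symbols and for the log2 values credited to them. The build is GRCm38, per the submitters' processing notes. The aligner, counter, annotation release and strand were not given in the sources used here.

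Counts were tested with edgeR 4.0.16 (TMM factors, filterByExpr, robust quasi-likelihood F test, Benjamini-Hochberg over all tested genes), within each line on its 6 libraries and between lines on all 12. Groups came from the sample titles. Each SE was obtained by dividing the size of the log2 change by the root of its F statistic. For Psmb8 and Psmb9, whose controls held few reads, that SE can be narrower than the counting interval allows. CPM is counts over library totals, and lengths are exon unions of GENCODE M21. Promoters are RefSeq's, copies were sought with blastn 2.17.0 (at least 90% identity over 200 bases). Most alike means Pearson r of log2 CPM with a prior count of 2. The test was checked on simulated counts with the same small spread for every gene. That check cannot show how often the test errs at the spread of these libraries. Depth sets the precision: with 2573805 to 24747859 counts per library, a count of 0 allows 0.121 to 1.17 CPM (3 counts).

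Replicate numbers were not treated as pairs in the main fits. Deviations of same-numbered libraries correlated at 0.120, -0.0134 and 0.136 in B16 and -0.0180, -0.410 and -0.0713 in YUMM1.1. Those of differently numbered libraries correlated at -0.178 to 0.0933 in B16 and -0.298 to 0.418 in YUMM1.1. With 3 libraries per group, these values cannot show whether the libraries were paired. The members, lists and tests were chosen with earlier results of these data known. Named are the members, their counterparts, regulators (1 is not reported here), overlapping genes and copies, and from each list its largest called rise and fall and its most abundant gene. Alternatives were RLE factors, library totals, no filter, at least 1 CPM in 3 libraries, DESeq2 1.42.0, limma-voom 3.58.1, all 12 libraries in 1 fit, a threshold of 0.01, a replicate block, the alike B16 IFNG 1 and 2 summed, other lengths, and leaving out each library. The lengths of basic transcripts and the addition of Psme2b were chosen after seeing the data.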

Additional observations from a re-analysis of the deposited data

Results flagged for a closer look

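The effect of IFNG differed between the lines for 2 members, by the interaction of line and treatment in edgeR, which was called for 18.5% of 13603 tested genes and for 8.51% in the direction of these members. For Psmb10 the YUMM1.1 change minus the B16 change was log2 -1.09 and for Psme2 it was -0.74. Over the alternatives the adjusted p ranged from 6.81e-06 to 0.0244 for Psmb10 and from 1.78e-04 to 0.0247 for Psme2, and in none of them was either call lost. Every treated library of both lines lay above the controls of its line for both genes, so the lines differ in the size of the rise and not in its direction.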

How the results depend on the processing

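The rise of the 5 members in the 2 lines kept its direction and call in 165 of 165 recomputed values, and the 2 called interactions held in all 22 alternatives each. Wherever genes were filtered, Psmb8 and Psmb9 came into the within-line tests through their treated libraries, so their calls there carry little weight. With an adjusted p below 0.01, 357 genes were called in YUMM1.1, 3295 in B16 and 1355 for the difference of the effects, against 591, 4958 and 2510 at 0.05. With no filter 1055 genes were called in YUMM1.1. With library totals the genes called higher and lower were 425 and 178 in YUMM1.1 (484 and 107 with TMM), 1702 and 3872 in B16 (2486 and 2472), 1727 and 886 for the interaction (1353 and 1157), and 3802 and 5595 between controls (4721 and 4546), and the median of all genes moved to 0.11 for the interaction and -0.20 between controls. The replicate block gave 560 genes in YUMM1.1 and 5765 in B16 with 5 members each, and Psmb10 between treated lines was then called (adjusted p = 0.0305), as with library totals (0.0246).

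Shares moved with the length. With basic transcripts Psmb8 made up 84.6% in YUMM1.1 IFNG, 0.499% in YUMM1.1 controls, 46.7% in B16 IFNG and 0.172% in B16 controls, Psmb9 48.3% in B16 IFNG, and Psmb10 78.1%, 18.2%, 74.5% and 10.8% in the same order of groups. With plain counts Psmb8 made up 90.8%, 0.899%, 61.3% and 0.311%, Psmb9 46.7% in YUMM1.1 IFNG and 61.2% in B16 IFNG, and Psmb10 80.1%, 20.04%, 76.7% and 12.1%.

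Signs turned only for values that were not called, the cause not tested. With library totals Psmb5 was -0.0015 in YUMM1.1 and -0.18 in B16, Psmb6 -0.17 in B16 and -0.022 between treated lines, Psmb7 -0.013, Psmd2 -0.034 and Psmd8 -0.063 in YUMM1.1, and Psme4 -0.0079 in B16. In B16 Psmb5 was -0.014 with limma-voom, and with B16 IFNG 1 and 2 summed Psmb5 was -0.061 and Psmb6 -0.024. With no filter Psmb6 was 0.012 and Psmb7 0.0027 between controls. Leaving out each library in turn gave interactions of -0.15 to 1.74 for Psmb8, -4.32 to 0.40 for Psmb9, -0.10 to 0.21 for Psmb5 and -0.0086 to 0.25 for Psmb6. Between controls it gave -1.10 to 3.61 for Psmb9, -0.15 to 0.11 for Psmb6 and -0.17 to 0.039 for Psmb7. In YUMM1.1 it gave -0.028 to 0.16 for Psmb5, -0.013 to 0.25 for Psmb6, -0.045 to 0.17 for Psmb7, -0.011 to 0.10 for Psmd2, -0.11 to 0.094 for Psmd8 and -0.16 to 0.0077 for Psme4, and in B16 -0.11 to 0.19 for Psmb5 and -0.060 to 0.12 for Psmb6. Genes called then ranged from 426 to 583 in YUMM1.1 and from 3728 to 6368 in B16. Depth limits the untreated Psmb8 and Psmb9, which rest on 25 reads or fewer per group.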
